A study of Mus musculus with 4 samples.

Results

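The genes described here are the nuclear-encoded subunits of the oxidative phosphorylation machinery. They were taken as every gene of the deposited feature list whose symbol begins with Ndufa, Ndufb, Ndufc, Ndufs or Ndufv and a digit, with Uqcr, with Cox4 to Cox8 or with Atp5, together with Sdha, Sdhb, Sdhc and Sdhd. This gave 85 of 32285 genes: 36 of complex I, 4 of complex II, 8 of complex III, 20 of complex IV and 17 of complex V (ATP synthase). Ndufa4 and its paralog Ndufa4l2 were counted with complex IV. The rule used names only and no measured value.

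Single-cell RNA libraries were made with a droplet kit that reads the 5′ ends of transcripts and counts unique molecular identifiers (UMIs, a tag for each captured RNA molecule). The cells came from subcutaneous tumours of OV2944-HM1, a mouse ovarian cancer line, in B6C3F1 mice that the labels give as 6 to 8 weeks old. Mice of the control group received vehicle into the tumour, and mice of the IL-27 group received 100 ng of recombinant mouse IL-27 per mouse, from the day of implantation and every other day after that. Tumours were taken at day 14 and CD45+ cells were enriched with magnetic beads. The labels list 2 entries per group, and each group was analysed as 1 pooled matrix, so the 2 groups were compared without replicates and no test of a treatment effect was possible. The number of mice behind a matrix is not given in the sources used here. All intervals are exact 95% intervals and cover counting error only.

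In oxidative phosphorylation, complex I (NADH dehydrogenase) and complex II (succinate dehydrogenase, which is also an enzyme of the citric acid cycle) pass electrons to ubiquinone, complex III hands them to cytochrome c, and complex IV (cytochrome c oxidase) to oxygen. The proton gradient built by complexes I, III and IV drives ATP synthase. Most subunits are encoded in the nucleus and a minority in mitochondrial DNA, and several complex IV subunits have paralogs that are used in particular tissues. Mature neutrophils are known for few mitochondria and a reliance on glycolysis, while activated and dividing lymphocytes and macrophages build more mitochondrial protein.

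In all, 54049661 UMIs fell on 10784 barcodes in control (median 2384.5 per barcode) and 43868189 UMIs on 10183 barcodes in IL-27 (median 1847). After filters 10617 and 9990 cells remained, and 133 barcodes occurred in both matrices. Cells were put into classes by the number of marker genes with a UMI, and 14 classes had at least 20 cells in each matrix. The labels call the cells lymphocytes, but neutrophil-like cells were the largest class, at 4878 of the control and 4023 of the IL-27 cells, ahead of macrophage-like cells at 1531 and 1387. Tumour-like and fibroblast-like cells, types that do not carry CD45, numbered 139 and 57 in control and 105 and 74 in IL-27. Cells with markers of several lineages (1480 and 1455) and cells with few markers (959 and 1094) were left out of the classes.

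Of the 85 genes, 84 are annotated as protein-coding, and Ndufb1-ps as a non-coding RNA from a bidirectional promoter. They lie on 19 chromosomes. Their median transcript length was 595.5 bases, against 1207.5 bases for all genes. The spans of 12 members overlap another annotated gene on the same strand (among them Cox4i1, Ndufc2, Atp5b, Atp5g2 and Atp5o), so their counts are less certain. Cox7b2 and Cox8c had no UMI in either matrix and Cox8b had 1 UMI in IL-27 and none in control. A count of 0 allows up to 0.0557 CPM in the control and 0.0688 CPM in the IL-27 matrix, where CPM is the number of UMIs per 1000000 UMIs of a class or matrix.

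RefSeq start sites were matched by symbol for 67 members in the GRCm38.p6 build, and the 250 bases before the start were searched on both strands. Only the first listed start of each gene was used, so some windows lie partly or wholly inside the annotated gene. That of Atp5g2, which has an NRF1 core match, does so with all 250 bases. The core of the NRF1 motif, GCATGCG, was present before 8 members (11.9%), against 3.07% of all 27025 start regions. An ETS-type motif, CCGGAAG, was present before 11 members (16.4%, against 7.05%), TATAAA before 7 (10.4%, against 13%), and the YY1-type motif AAGATGG before 0 (against 4.53%). NRF1, ETS-family factors and YY1 are known regulators of nuclear mitochondrial genes. Bases after the start were not searched, so the count of 0 for the YY1-type motif does not cover matches there. The 3 regions below are shown because these members are described in the neutrophil comparison that follows: Cox8a had the highest ratio of neutrophil-like to macrophage-like level, and Ndufc2 and Ndufa11, the latter with a motif match, were far lower in neutrophil-like cells. Motif matches are in capitals; CGCATGCG holds an NRF1 core on each strand, which overlap.
Cox8a (chr19:7217617-7217866, minus strand): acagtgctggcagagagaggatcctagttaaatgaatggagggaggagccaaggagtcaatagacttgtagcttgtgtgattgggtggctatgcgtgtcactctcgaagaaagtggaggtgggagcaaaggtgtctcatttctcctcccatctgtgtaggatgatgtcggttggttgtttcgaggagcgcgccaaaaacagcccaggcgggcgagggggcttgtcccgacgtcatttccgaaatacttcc
Ndufc2 (chr7:97399753-97400002, plus strand): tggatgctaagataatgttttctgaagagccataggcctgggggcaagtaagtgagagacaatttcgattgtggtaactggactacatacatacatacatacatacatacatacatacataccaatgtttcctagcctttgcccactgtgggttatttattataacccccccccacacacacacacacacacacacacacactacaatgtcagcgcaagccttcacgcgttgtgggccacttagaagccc
Ndufa11 (chr17:56717512-56717761, plus strand): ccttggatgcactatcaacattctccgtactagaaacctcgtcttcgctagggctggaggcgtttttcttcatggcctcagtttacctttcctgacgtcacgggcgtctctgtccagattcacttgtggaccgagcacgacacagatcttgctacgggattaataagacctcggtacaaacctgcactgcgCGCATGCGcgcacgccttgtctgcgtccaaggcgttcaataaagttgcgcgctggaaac
None of the searched letters occurred in the Cox8a and Ndufc2 windows, which describes these windows alone. Of the members with an NRF1 core match, Ndufa11 had the lowest control ratio of neutrophil-like to macrophage-like level (0.110) and Atp5l the highest (0.307). A link between motif and ratio was not tested.

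The summed level of the 85 genes separated neutrophil-like cells from every other class. It was 6595 CPM (6549 to 6642) in control and 7430 CPM (7366 to 7494) in IL-27 neutrophil-like cells. In the other 13 classes it lay between 20322 and 26436 CPM in control and between 19967 and 25949 CPM in IL-27. No class came between these ranges in either matrix. Fewer subunit transcripts per cell and more of the other transcripts cannot be told apart in a share of UMIs. Per cell, neutrophil-like cells had a mean of 15.6 member UMIs of 2372 UMIs per cell in control, and macrophage-like cells 88.8 of 3430.

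With dividing cells included, CD8 T cell-like cells held the highest sum in both matrices. It was 26436 CPM (26230 to 26644) in control and 25949 (25607 to 26294) in IL-27. Macrophage-like cells came next in control, at 25902 (25765 to 26040), and stood at rank 4 in IL-27, at 23214 (23056 to 23373). Plasmacytoid dendritic cell-like cells, a class of 21 and 25 cells, stood at 23798 (23063 to 24550) and 25226 (24577 to 25888), and their IL-27 interval overlapped that of CD8 T cell-like cells. Regulatory T cell-like cells (marked by Foxp3) were in the middle, at 23549 (23297 to 23804) and 22863 (22640 to 23088). Plasmacytoid dendritic cell-like cells differed in control by less than counting error from their neighbours in this order, the type 2 dendritic and the regulatory T cell-like classes, while those 2 differed by a ratio of 1.017 (1.003 to 1.031). Differences were also within counting error among the tumour-like, fibroblast-like and monocyte-like classes at 22870, 22785 and 22644 CPM, and among the mast cell and basophil-like, NK cell-like and other T cell-like classes at 20603, 20550 and 20322 CPM.

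**Figure D1:**
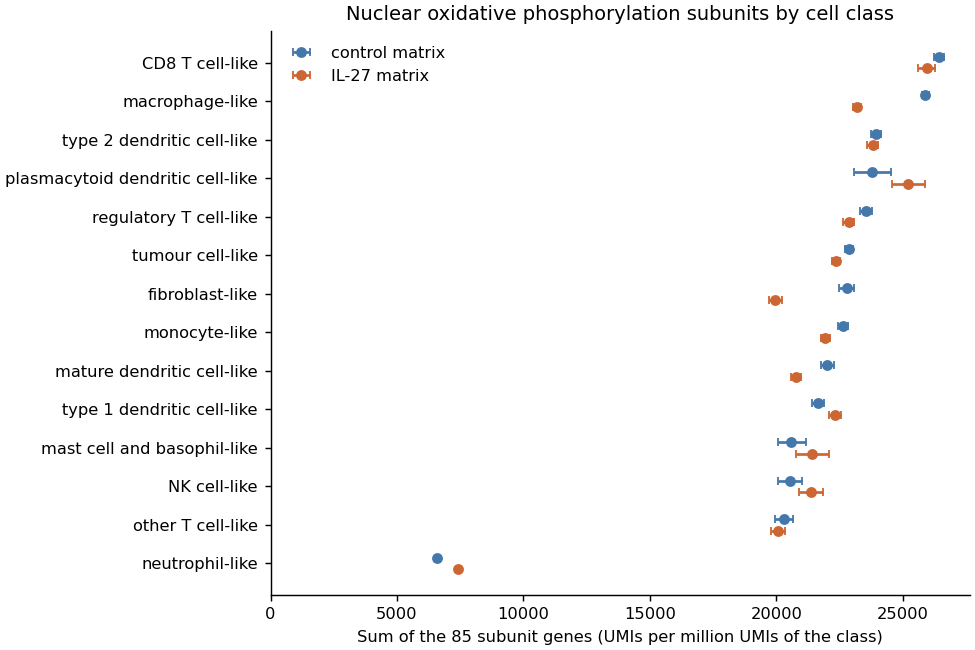
Summed level of the 85 subunit genes (CPM, horizontal axis from 0) in each of 14 cell classes (vertical axis), with exact 95% Poisson intervals, for the control and the IL-27 matrix. The neutrophil-like points at 6595 and 7430 CPM sit apart from all other points, the lowest of which is 19967 CPM.

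The gap is given here also as counts at equal depth. Thinning keeps each cell's expected share of member UMIs, so these counts restate the shares and are no separate check. With every cell thinned to 1000 UMIs, the median neutrophil-like cell held 5 member UMIs in control (quartiles 3 and 8) and 6 in IL-27 (quartiles 3 and 9). The median macrophage-like cell held 24 (17 and 32) and 21 (15 and 29), and the median CD8 T cell-like cell 25 (20 and 30) and 22 (18 and 28). Thinning left out 533 and 728 neutrophil-like and 286 and 338 macrophage-like cells with fewer UMIs. Unthinned, the median share was 0.537% and 0.576% of a neutrophil-like cell's UMIs and 2.42% and 2.08% of a macrophage-like cell's.

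T cell-like cells with at least 2 of 6 dividing-cell markers (genes such as Mki67 that are made in cycling cells) had a higher sum than those with none. Among all T cell-like cells it was 27352 CPM in 97 dividing and 22625 CPM in 394 non-dividing control cells, and 27107 CPM in 68 and 20305 CPM in 457 IL-27 cells. Regulatory T cell-like cells showed the same order, at 26909 against 20957 CPM in control and 26933 against 20255 CPM in IL-27. So did CD8 T cell-like cells, at 27457 against 25403 CPM in control and 28525 against 23434 CPM in IL-27. Among cells with none of the 6 markers, CD8 T cell-like cells did not have the highest value in either matrix. In control, macrophage-like cells without these markers stood at 25506 CPM, close to the 25403 CPM of CD8 T cell-like cells. In IL-27, plasmacytoid dendritic cell-like cells stood at 25377 CPM. No intervals were computed for these values, so the order in control is not settled. Dividing T cell-like cells also had a median of 16400 UMIs against 4872 in control and 13835 against 3674 in IL-27, and the part of this depth gap in the difference was not tested.

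Neutrophil-like cells were set against macrophage-like cells member by member, since both classes were large and had like median depths (2147.5 and 2216 UMIs per cell in control, 1591 and 1765 in IL-27). In control, 79 of the 80 members with at least 20 UMIs in the pair were at least 1.5-fold lower in neutrophil-like cells, where 62.6% of all 10827 genes tested were so. In IL-27 it was 78 of 80, where 62.7% of 10024 genes were. The median member ratio was 0.207 in control and 0.230 in IL-27, against 0.431 and 0.437 for all genes tested. The 10 leading genes took 27.7% of neutrophil-like UMIs and 14.8% of macrophage-like UMIs in control, and 26.3% and 16.9% in IL-27. The part of this in the high background was not tested.

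All 5 complexes took part. The summed neutrophil-like over macrophage-like ratio was 0.231 (0.227 to 0.235) for complex I, 0.248 (0.232 to 0.265) for complex II, 0.181 (0.175 to 0.186) for complex III, 0.346 (0.341 to 0.351) for complex IV and 0.217 (0.214 to 0.221) for complex V in control. In IL-27 the same sums gave 0.297, 0.210, 0.228, 0.424 and 0.289. Complex IV was the least lowered in both matrices, complex III the most in control and complex II the most in IL-27.

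Without Cox8a, a split chosen after its values were seen, the complex IV ratio was 0.235 in control and 0.278 in IL-27. Cox8a, the ubiquitous form of a small cytochrome c oxidase subunit, stood at 1172 CPM in neutrophil-like and 1454 CPM in macrophage-like control cells (ratio 0.806, 0.783 to 0.829). In IL-27 the levels were 1216 and 1007 CPM (ratio 1.21, 1.16 to 1.26), and it was the only one of the 80 members tested that was higher in neutrophil-like cells. Ndufa7, an accessory subunit of complex I, was the other exception to the 1.5-fold difference in IL-27, at 199 and 242 CPM (0.825); in control it stood at 190 and 304 CPM (0.626). Ndufa7 was named after its values were seen.

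Ndufc2, a membrane-arm subunit of complex I, was among the members with low ratios, although Cox4i2 in control (0.0629) and Ndufa4l2 (0.0281) and Cox7a1 (0.0911) in IL-27 were lower on far fewer UMIs. Ndufc2 was counted at 13.4 CPM in neutrophil-like and 205 CPM in macrophage-like control cells (0.0652, 0.0547 to 0.0772) and at 17.5 and 177 CPM in IL-27 (0.0987, 0.0807 to 0.120). Its highest control level was 438 CPM in plasmacytoid dendritic cell-like cells, 32.7-fold its neutrophil-like level, the widest range of the complex I genes with a UMI in every class of that matrix. Ndufa11, whose start region is shown above with its NRF1 match, stood at 17.4 and 158 CPM in control and 19.3 and 140 CPM in IL-27.

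Over all 14 classes, 77 members had a UMI in every class of the control matrix, and 75 of them were lowest in neutrophil-like cells. In IL-27 it was 75 of 78. The exceptions in control were Cox8a, lowest in plasmacytoid dendritic cell-like cells (750 CPM), and Ndufb1-ps, lowest in tumour-like cells (114 CPM). No class held the highest level of most members: macrophage-like cells held it for 22 and 13 members and CD8 T cell-like cells for 14 and 17. Among members with a UMI in every control class, the widest ranges in the remaining complexes were 8.34-fold for Sdhb (252 CPM in mast cell and basophil-like, 30.2 CPM in neutrophil-like cells), 11.4-fold for Uqcr11 (528 and 46.1 CPM, macrophage-like and neutrophil-like), 15.6-fold for Ndufa4 (460 and 29.5 CPM, tumour-like and neutrophil-like) and 22.9-fold for Atp5g2 (1351 and 59.0 CPM, the same classes).

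Genes around the complexes did not all follow. The 13 mitochondrially encoded subunits, which code for core proteins of complexes I, III, IV and V, summed to 3098 CPM in neutrophil-like and 15420 CPM in macrophage-like control cells (0.201) and to 4135 and 14774 CPM in IL-27 (0.280). Citric acid cycle genes gave ratios of 0.318 and 0.307 and mitochondrial ribosome genes 0.322 and 0.404. Glycolysis genes were closer to parity, at 0.740 and 0.660. The 45 assembly factors gave 0.980 and 1.45, and most of that sum in neutrophil-like cells was Cox17, the copper chaperone of cytochrome c oxidase, at 1630 and 2625 CPM in neutrophil-like against 889 and 977 CPM in macrophage-like cells. Cytosolic ribosome genes gave 0.185 and 0.215, below the 0.255 and 0.320 of the 85 subunits together.

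Free RNA can carry transcripts between droplets. The 9 neutrophil markers summed to 43239 and 38223 CPM in neutrophil-like cells, to 4602 and 4144 CPM in macrophage-like cells and to 432 and 263 CPM in regulatory T cell-like cells. The 8 macrophage markers summed to 6113 and 6455 CPM in macrophage-like cells and to 106 and 136 CPM in neutrophil-like cells. The part of such carry-over in the ratios was not tested.

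Complex IV paralogs marked particular classes. Cox6a2 (ENSMUSG00000030785, GRCm38 chr7:128205435-128206387, minus strand), the form of subunit 6a known from heart and skeletal muscle, was at 1753 CPM in plasmacytoid dendritic cell-like cells of the control matrix and 1938 CPM in those of IL-27 (292 and 440 UMIs). Every such cell had a UMI of it, 21 of 21 (83.9 to 100%) in control and 25 of 25 (86.3 to 100%) in IL-27. Elsewhere it was nearly absent: 2 of 4878 control neutrophil-like cells (0.041%) and 1 of 1531 control macrophage-like cells (0.0653%) had a UMI, and none of the 191 regulatory T cell-like cells did, which allows a share of cells with a UMI, not of cells expressing the gene, of up to 1.57%.

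Plasmacytoid dendritic cell-like cells were deeper, with a median of 8097 UMIs in control, but with all cells thinned to 1000 UMIs Cox6a2 was still seen in 71.4% and 80% of them and in 0% of neutrophil-like cells. The broadly used paralog Cox6a1 was also present in them, at 348 and 418 CPM, within the range of the other classes. Cox6a2 was not among the 6 markers that set the class, all of which were detected in both matrices. The IL-27 over control ratio in this class was 1.11 (0.951 to 1.29), which does not exclude parity.

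Cox4i2 (chr2:152754173-152765037, plus strand) and Ndufa4l2 (chr10:127514967-127517154, plus strand) are paralogs of Cox4i1 and Ndufa4 that are known to respond to low oxygen and to be made in pericytes, the contractile cells around small vessels. Both were highest in fibroblast-like cells. Cox4i2 stood there at 613 CPM in control and 309 CPM in IL-27, in 68.4% (54.8 to 80.1%) and 60.8% (48.8 to 72.0%) of cells. Ndufa4l2 stood at 730 and 532 CPM, in 86.0% (74.2 to 93.7%) and 85.1% (74.96 to 92.3%) of cells. In regulatory T cell-like cells 1 of 191 control cells had Cox4i2 and none had Ndufa4l2, at a median depth of 5163 UMIs against 16159 in fibroblast-like cells.

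Within the fibroblast-like class Cox4i2 went with Rgs5, a gene known from pericytes. Cells with at least 2 Rgs5 UMIs held 935 CPM of Cox4i2 in control (34 cells) and 463 CPM in IL-27 (46 cells), and the remaining cells 26.2 and 26.7 CPM (23 and 28 cells). Ndufa4l2 was at 917 and 648 CPM in the former and at 389 and 318 CPM in the latter. Ndufa4 ran the other way, at 97.3 and 81.8 CPM in cells with Rgs5 and at 264 and 240 CPM in the others, while Cox4i1 was present in both, at 1152 and 968 CPM and at 953 and 866 CPM. This split was chosen after the values were seen and describes these cells only.

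Cox4i2 was also found in macrophage-like and monocyte-like cells, where Cox4i1 was the main form (1007 and 920 CPM in macrophage-like cells). In macrophage-like cells it was at 31.6 CPM in control (166 UMIs, 6.79% of cells) and 15.1 CPM in IL-27 (54 UMIs, 3.53%), a ratio of 0.479 (0.346 to 0.655). In monocyte-like cells it was at 29.8 and 6.29 CPM (76 and 16 UMIs), a ratio of 0.211 (0.115 to 0.365). Neutrophil-like cells, at like depth to macrophage-like cells, had it in 0.369% and 0.224% of cells. Macrophage-like control cells held 166 UMIs of Cox4i2 and 41 of Ndufa4l2, and fibroblast-like control cells 595 and 709. In fibroblast-like cells the IL-27 over control ratio of Cox4i2 was 0.505. The part of carry-over between droplets or of doublets in the macrophage-like and monocyte-like counts was not tested.

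The remaining paralogs were less divided. Cox7a1, another gene known from heart and skeletal muscle, was at most 29.1 CPM in any class (fibroblast-like, IL-27), and Cox6b2, known from testis, at most 19.5 CPM (mast cell and basophil-like, IL-27, from 4 UMIs). Of the 3 genes for the c-ring of ATP synthase, Atp5g2 had the widest range in complex V: it stood at 1351 and 1066 CPM in tumour-like cells, 375 and 325 CPM in macrophage-like cells and 59.0 and 50.8 CPM in neutrophil-like cells. Atp5g1 was at 303 and 327 CPM and Atp5g3 at 905 and 786 CPM in tumour-like cells. Cox7a2l, a factor of respiratory supercomplexes, was highest in mature dendritic cell-like cells, at 329 and 375 CPM.

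**Figure D2:**
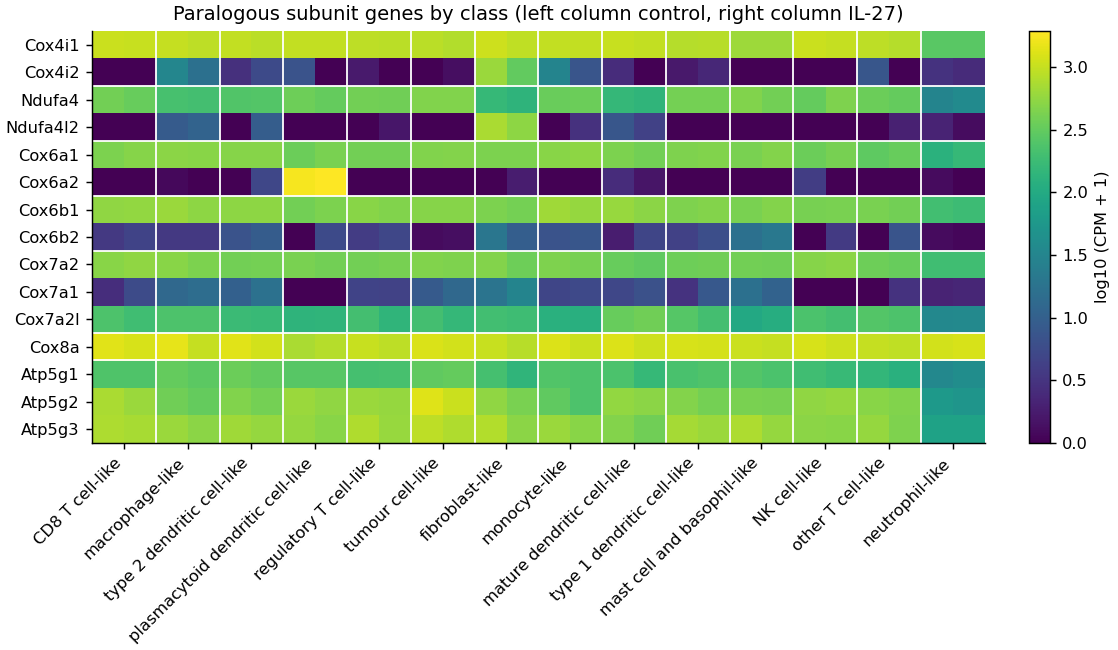
Level of 15 paralogous subunit genes (rows) in 14 cell classes (columns, control left and IL-27 right in each pair), as log10 of CPM plus 1. Cox6a2 is bright in the plasmacytoid dendritic cell-like pair (1753 and 1938 CPM), and Cox4i2 and Ndufa4l2 in the fibroblast-like pair.

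Between the groups, the nuclear subunits differed little as a set. Over the 14 classes the ratio of the summed level, IL-27 over control, ran from 0.876 in fibroblast-like to 1.13 in neutrophil-like cells, with a median of 0.984. It was above 1 with its interval in 4 classes and below 1 in 7. The ratio was 1.13 (1.11 to 1.14) in neutrophil-like cells, 0.896 (0.888 to 0.904) in macrophage-like cells, 0.971 (0.957 to 0.985) in regulatory T cell-like cells and 0.982 (0.967 to 0.997) in CD8 T cell-like cells. With a correction for transcript length the last 2 ratios were 1.02 and 1.02, on the other side of 1. With 1 matrix per group these intervals do not cover differences between mice or libraries.

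In neutrophil-like cells 79 members were tested, and the median log2 ratio was 0.10, against 0.07 for all genes. At least 1.5-fold higher were 2 members, Atp5k and Ndufb1-ps, where 12.6% of all genes were, and 0 were as much lower, where 8.56% were. In macrophage-like cells 81 members had a median of -0.16, against 0.03 for all genes. There 0 were higher (background 6.48%) and 1 was lower (6.41%), which was Cox4i2. In both classes the members' shares were below the background. That background holds every gene with at least 20 UMIs and was not matched to the members' counts. The part of count depth in this was not tested.

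For regulatory T cell-like cells, which the study's title names, 77 members had a median log2 ratio of -0.08, against -0.02 for all genes. At least 1.5-fold higher were 2 members, Ndufb1-ps and Atp5mpl (background 10.0%), and lower were 3, Ndufs3, Sdhb and Ndufa9 (10.1%). In CD8 T cell-like cells 77 members had a median of -0.05, against -0.03 for all genes. Higher there were 2, Atp5k and Ndufb1-ps (10.9%), and lower was 1, Atp5o (12.8%).

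Few members kept a direction through all classes. Of the 73 members with at least 20 UMIs in each of the 14 classes, 4 were higher in IL-27 in every class (Atp5k, Atp5mpl, Ndufa3 and Ndufb1-ps), where 6.19% of all 1873 genes tested in every class were, and 3 were lower in every class (Atp5d, Cox5b and Uqcrc1), where 5.23% were. Both member counts are near these shares. The classes share their 2 libraries and are not replicates of the treatment. The 4 had transcript lengths of 371 to 667 bases and the 3 of 494 to 902 bases, and over the 73 members the median log2 ratio had a Spearman correlation of -0.53 (Pearson -0.28) with transcript length and of -0.12 (Pearson -0.06) with GC content. These correlations run over genes of the same 2 libraries and describe them only. All genes with at least 20 UMIs in a class were also cut into 5 bins by transcript length. In regulatory T cell-like cells their median log2 ratio was -0.067 in the shortest and 0.124 in the longest bin. The members' correlation with length had the opposite sign. The shortest bin held 52 members and the longest 1. By GC content the median of all genes was 0.116 in the lowest and -0.144 in the highest bin. Neutrophil-like, macrophage-like and CD8 T cell-like cells had the same order of these end bins. The part of transcript length and GC content in the differences was not tested.

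Atp5k, a small membrane subunit of ATP synthase, was at 31.3 CPM in control and 50.5 in IL-27 neutrophil-like cells, a ratio of 1.62 (1.39 to 1.88). It was at 184 and 254 CPM in macrophage-like cells (1.38, 1.26 to 1.51) and at 167 and 277 CPM in CD8 T cell-like cells (1.66, 1.40 to 1.95). Atp5k was higher in IL-27 in 14 of 14 classes, with its largest log2 ratio, 0.83, in tumour-like cells. Atp5mpl, another small ATP synthase subunit, was at 314 CPM in control and 472 CPM in IL-27 regulatory T cell-like cells (1.502, 1.34 to 1.69).

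Ndufb1-ps, the mouse gene named for a complex I accessory subunit, was at 131 and 243 CPM in neutrophil-like cells (1.86, 1.73 to 1.99). In regulatory T cell-like cells it was at 244 and 371 CPM (1.52, 1.33 to 1.74). Its annotation as a non-coding transcript that overlaps Cpsf2 on the other strand limits what its UMIs count. Ndufa3, an accessory subunit of complex I, was at 213 and 236 CPM in regulatory T cell-like and 168 and 273 CPM in other T cell-like cells.

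Atp5d, the delta subunit in the stalk of ATP synthase, was at 635 CPM in control and 453 CPM in IL-27 regulatory T cell-like cells (0.714, 0.648 to 0.786) and at 365 and 267 CPM in macrophage-like cells (0.731, 0.675 to 0.790). Cox5b, a nuclear subunit on the matrix side of complex IV, was at 443 and 346 CPM in macrophage-like cells (0.782, 0.729 to 0.838). Uqcrc1, a core protein of complex III, was at 176 and 126 CPM in regulatory T cell-like cells (0.715, 0.593 to 0.860), although in type 2 dendritic cell-like cells the matrices were level at 126 CPM. Uqcr11, a small subunit of complex III, differed by class: it was at 245 and 319 CPM in regulatory T cell-like cells, at 132 and 247 CPM in NK cell-like cells (1.88, 1.31 to 2.74) and at 528 and 469 CPM in macrophage-like cells (0.889, 0.836 to 0.945).

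Complex II had the most uniform direction of the complexes in its summed level. Its 4 genes summed to less in IL-27 in 12 of 14 classes, with the interval below 1 in 9 and above 1 in 0, and a median ratio of 0.873. The sum was 448 CPM in control and 351 CPM in IL-27 regulatory T cell-like cells (0.784, 0.700 to 0.877), while in macrophage-like cells it was 477 and 493 CPM (1.03, 0.971 to 1.10). Sdhb, the iron-sulfur subunit, was lower in IL-27 in 13 of 14 classes, at 208 and 131 CPM in regulatory T cell-like cells (0.633, 0.530 to 0.754) and 198 and 144 CPM in CD8 T cell-like cells. Sdha, the flavoprotein that oxidises succinate, was closer to parity, at 97.4 and 89.2 CPM in regulatory T cell-like and 97.0 and 117 CPM in CD8 T cell-like cells. The membrane anchors Sdhc and Sdhd were at 61.4 and 55.1 CPM and at 81.9 and 75.6 CPM in regulatory T cell-like cells, with both intervals of the ratio spanning 1. Sdhc was at 121 and 141 CPM in macrophage-like cells and was higher in IL-27 in 8 of 12 classes tested. Sdha and Sdhd were lower in 10 and 11 of 14 classes.

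The core subunits of complex I named here went in both directions. Ndufs3 was at 107 CPM in control and 67.1 CPM in IL-27 regulatory T cell-like cells (0.625, 0.487 to 0.8002) and was lower in 12 of 14 classes. Ndufv1, which binds NADH, was lower in 11 of 13, and was at 70.6 and 56.8 CPM in regulatory T cell-like cells. Ndufs1, the largest iron-sulfur subunit, was higher in 11 of 12, at 33.9 and 42.1 CPM in the same cells. Ndufa9, an accessory subunit, was at 50.8 and 30.7 CPM there (0.604, 0.416 to 0.871), with 72 and 54 UMIs. Ndufv2, an iron-sulfur subunit, had its lowest ratio in fibroblast-like cells, at 128 and 56.4 CPM (0.442, 0.323 to 0.6002). Members that passed the fold in 1 smaller class included Ndufb8 in fibroblast-like cells (0.575) and Ndufs7 in other T cell-like cells (0.602), both of complex I, and Cox7c of complex IV in NK cell-like cells (1.58).

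Among the other hub subunits, Atp5b, the catalytic beta subunit of ATP synthase, was at 498 and 376 CPM in regulatory T cell-like cells (0.755, 0.678 to 0.841) and 574 and 402 CPM in CD8 T cell-like cells (0.699, 0.619 to 0.788), and at 344 and 337 CPM in macrophage-like cells. Atp5o, the stalk subunit that joins both parts of ATP synthase, was at 323 and 211 CPM in CD8 T cell-like cells (0.652, 0.551 to 0.768). The Rieske protein Uqcrfs1 was at 237 and 222 CPM in regulatory T cell-like and 185 and 157 CPM in macrophage-like cells, and Cox5a at 443 and 376 and at 648 and 580 CPM. Cox4i1 was nearly level, at 922 and 896 CPM in regulatory T cell-like and 276 and 278 CPM in neutrophil-like cells.

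**Figure D3:**
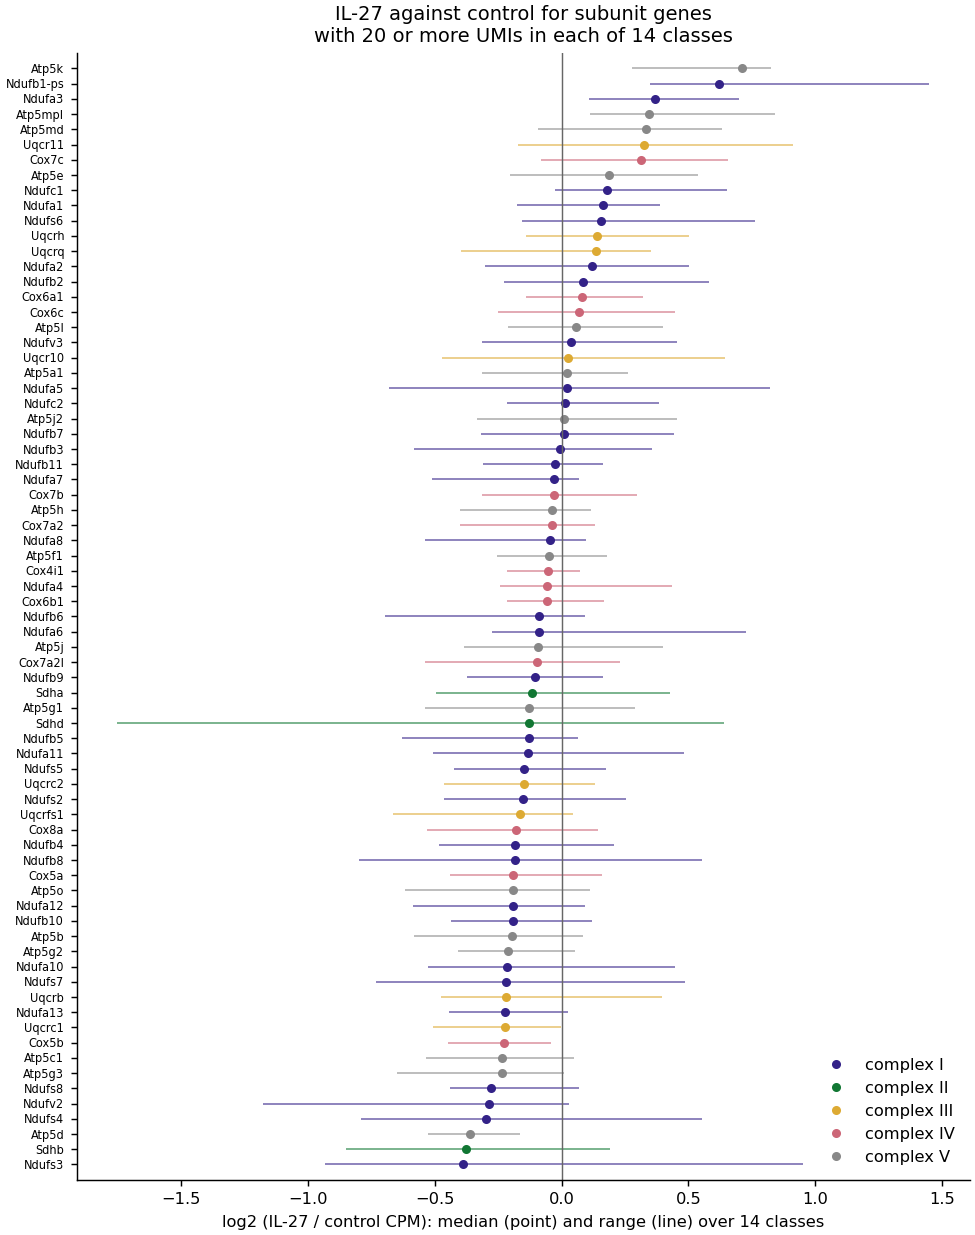
Log2 ratio of IL-27 to control CPM (horizontal axis) for each of the 73 members with at least 20 UMIs in all 14 classes (vertical axis, ordered by median), with the median over classes as a point and the lowest to highest class as a line. The lines of Atp5k, Ndufb1-ps, Ndufa3 and Atp5mpl at the top lie wholly above 0, and those of Atp5d, Cox5b and Uqcrc1 wholly below.

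The mitochondrially encoded subunits did not move with the nuclear ones. Their sum was higher in IL-27 in 13 of 14 classes, each with its interval above 1, and the median ratio was 1.45. It was 12264 CPM in control and 17653 CPM in IL-27 regulatory T cell-like cells (1.44, 1.41 to 1.47), in CD8 T cell-like cells 13503 and 19776 CPM (1.46, 1.44 to 1.49) and in tumour-like cells 11908 and 20138 CPM (1.69, 1.67 to 1.71). Macrophage-like cells were the exception, at 15420 and 14774 CPM (0.958, 0.948 to 0.969), and with no limit on the mitochondrial share the ratio there was 1.03.

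The nuclear to mitochondrial ratio of subunit UMIs accordingly went from 1.92 in control to 1.295 in IL-27 regulatory T cell-like cells, from 1.96 to 1.31 in CD8 T cell-like cells and from 1.68 to 1.57 in macrophage-like cells. Of the 13 genes, 5 were at least 1.5-fold higher in regulatory T cell-like and 5 in CD8 T cell-like cells, where 10.0% and 10.9% of all genes were, and 0 were lower in either, where 10.1% and 12.8% were. The gene mt-Co1, the catalytic subunit of complex IV, was at 3649 and 5482 CPM in regulatory T cell-like cells, and mt-Nd4 of complex I at 330 and 605 CPM. Over all cells kept, the median mitochondrial share of UMIs was 0.356% in control and 0.606% in IL-27. The mitochondrial share is also a usual sign of cell quality, and its part in these ratios was not tested.

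**Figure D4:**
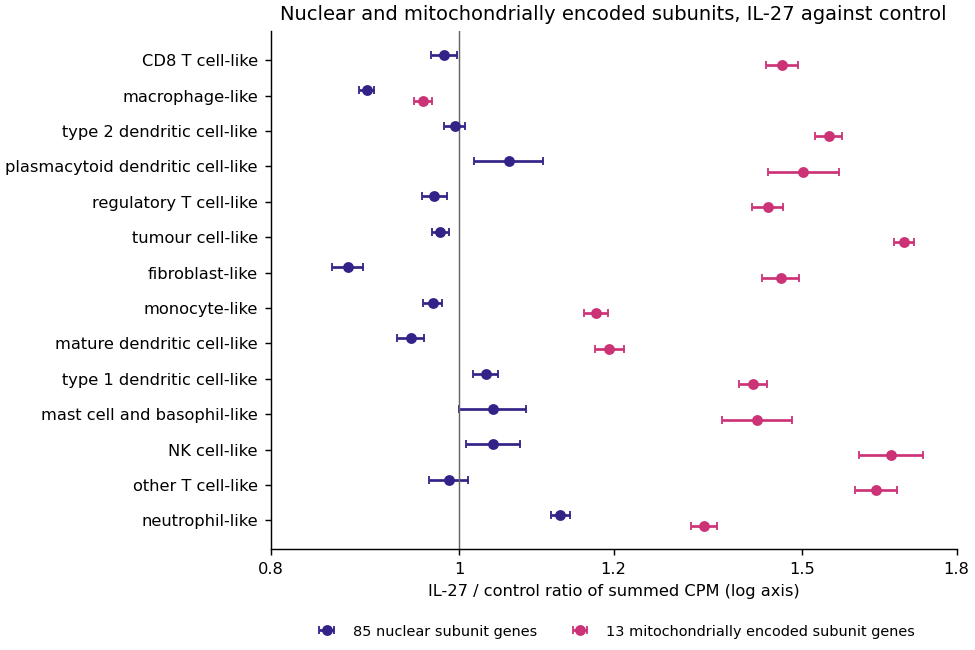
Ratio of summed CPM, IL-27 over control (horizontal log axis), for the 85 nuclear and the 13 mitochondrially encoded subunit genes in 14 cell classes (vertical axis), with exact 95% intervals. The nuclear sums lie between 0.876 and 1.13, and the mitochondrial sums above 1 in every class but macrophage-like cells (0.958), up to 1.69 in tumour-like cells.

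The surrounding pathways gave further context for the same classes. The 14 glycolysis genes summed to less in IL-27 in all 14 classes (median ratio 0.760), and in regulatory T cell-like cells 3 were at least 1.5-fold lower and 0 higher (all genes 10.1% and 10.0%), with Ldha, which makes lactate, at 1354 and 1013 CPM. The 13 citric acid cycle genes summed to less in 13 of 14 classes (median 0.893), with 0 members past 1.5-fold in regulatory T cell-like cells in either direction. Of the assembly factors tested there, 3 of 39 were higher and 5 lower, near the shares of all genes (10.0% and 10.1%). Cox17, at 389 and 560 CPM in these cells, and Pet100, at 65.7 and 123 CPM, both factors for complex IV, were higher in IL-27 in 13 and 14 of 14 classes. Factors for complex IV went in both directions: Cox20 was higher in 13 of 14 classes, Surf1 lower in 11 of 12 and Coa3 lower in 11 of 14. Cycs, the somatic cytochrome c that links complexes III and IV, was lower in 13 of 14 classes, at 324 and 263 CPM in regulatory T cell-like cells. Mitochondrial ribosome genes summed to 5227 and 4931 CPM there (0.943, 0.914 to 0.973).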

How the data were processed

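The deposited values are raw UMI counts per gene and cell, 1 matrix for each group. Per the file headers the software was Cell Ranger 4.0.0. The submitters' processing notes name Cell Ranger 4.0, Seurat 3.2.0 and mm10, and the labels' protocols a 10x Genomics 5′ kit. No normalization was applied to the counts by the authors, as far as the values show.

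Cells with at least 200 genes, 500 UMIs and under 10% mitochondrial UMIs were kept. A cell took the class with the largest share of its markers seen, with at least 2 markers, and was left out as mixed on ties or where another lineage reached over 0.5 of that share. T cells were split by Foxp3 and by Cd8a or Cd8b1. This scoring rule was set after the data were seen. No doublets were removed beyond mixed cells; removing the 8% highest Scrublet scores (scanpy 1.11.5) was an alternative. Counts were summed per class and matrix and given as CPM with exact Poisson intervals, ratios with exact conditional binomial intervals and shares of cells with exact binomial intervals. A call is a ratio of at least 1.5-fold among genes with at least 20 UMIs over both sums. The ratio step was tested on simulated data. TMM factors came from edgeR 4.0.16; no count model was fitted, since each group is 1 sample. Coordinates, lengths (median over transcripts) and GC content are from GENCODE on GRCm38, start regions from RefSeq.

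Named genes were all paralogs of the isoform families, 9 hub subunits, the extreme IL-27 over control ratios per complex, members past 1.5-fold in a class and the widest class range per complex; other genes came from pathway lists. Ndufa11 fell under none of these naming rules. Members and lists were chosen with earlier results of these data known. Marker lists held 6 to 9 genes, and the 3 T cell classes shared 1 list of 6.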

Additional observations from a re-analysis of the deposited data

Results flagged for a closer look

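The summed level of the nuclear subunits differed between the groups in opposite directions in the 2 largest classes: IL-27 over control it was 1.13 in neutrophil-like cells and 0.896 in macrophage-like cells. This difference between the classes was not tested, since each group is 1 matrix. It is listed because the same contrast pointed up in 1 class and down in the other.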

How the results depend on the processing

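Of 136 alternative values for 20 results, 87 kept their direction and stayed near the reported value, 46 moved and 3 reversed; the causes were not tested. The neutrophil-like over macrophage-like ratio (0.255 in control, 0.320 in IL-27) was 0.360 and 0.427 with mixed cells assigned, 0.236 and 0.297 without the 8% highest doublet scores, 0.259 and 0.313 as a mean over cells, and 0.228 and 0.289 over totals without mitochondrial, ribosomal and marker genes. The IL-27 over control sum in neutrophil-like cells (1.13) was 1.07 with mixed cells assigned, 1.11 without dividing cells, 1.08 as a cell mean, 1.08 with scaling to the median ratio, 1.08 with TMM scaling and 1.10 with a length correction. In macrophage-like cells (0.896) median scaling gave 0.879, TMM 0.878 and the length correction 0.909. In regulatory T cell-like cells (0.971) leaving out dividing cells gave 0.943, median scaling 0.985 and the length correction 1.02, which reversed it. In CD8 T cell-like cells (0.982) leaving out dividing cells gave 0.944, the cell mean 0.940, median scaling 1.00 and the length correction 1.02, again reversed. Leaving out dividing cells was added after the data were seen.

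Members past the fold in neutrophil-like cells (2) were 5 without high doublet scores, 5 with no minimum and 24 of 79 at a smaller fold, where 46.7% of all genes were. In macrophage-like cells (1) they were 2 with no mitochondrial limit, without shared barcodes, as a cell mean, with median scaling, with TMM scaling or with no minimum, and 18 of 81 at the smaller fold (all genes 36.5%). In regulatory T cell-like cells (5) they were 9 without dividing cells and 22 of 77 at the smaller fold (45.6%), and in CD8 T cell-like cells (3) 5 without dividing cells, 9 as a cell mean and 21 of 77 at the smaller fold (49.0%). Thinned to 1000 UMIs, Cox6a2 was seen in 71.4% and 80% of plasmacytoid dendritic cell-like cells, and in fibroblast-like cells Cox4i2 in 34.5% and 17.8% and Ndufa4l2 in 56.4% and 50.7%. The mitochondrially encoded sum with no mitochondrial limit was 1.39 in neutrophil-like, 1.03 in macrophage-like (reversed from 0.958) and 1.47 in regulatory T cell-like cells, and 0.925 in macrophage-like cells at a limit of 5%. No paired analysis was possible because each group is 1 pooled matrix. Differences between mice and between libraries cannot be told apart from the treatment. The summed level had its widest intervals in plasmacytoid dendritic cell-like cells (21 and 25 cells) and in mast cell and basophil-like cells (50 and 39 cells).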
